A study of Trichoderma reesei with 9 samples.

Results

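Genes for carriers of organic acids were described library by library in RNA from mycelia of Trichoderma reesei, a mould used to make cellulases. The set holds 2 genes of the 10348 in the deposited tables, TRIREDRAFT_121441, described there as a lactate/pyruvate transporter, and TRIREDRAFT_121743, described as a mitochondrial succinate-fumarate transporter-like protein. They were chosen with their levels in these same libraries known, so their levels and differences are given as a description, without a test. The parent was Rut-C30, which the labels call wild type and which is known to carry a truncated gene for the carbon catabolite repressor Cre1. The other groups, Δvps13 and Δvps21, are Rut-C30 with a gene of vacuolar protein sorting deleted, and the labels do not say how many transformants stand behind either. All 3 groups had 3 libraries each and had grown for 96 h on Avicel, a microcrystalline cellulose that induces cellulase genes.

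Lactate and pyruvate transporters move these monocarboxylic acids across the plasma membrane together with protons. In baker's yeast this is the work of Jen1, a major facilitator protein that is used on non-fermentable carbon sources. The yeast succinate-fumarate carrier Sfc1 sits in the inner mitochondrial membrane. It takes in succinate made by the glyoxylate cycle and gives out fumarate, which feeds the formation of sugars from acetate or ethanol.

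Library totals ran from 12127372 to 13493219 counts, and 8906 genes had enough counts to be tested, among them both transporter genes. The Δvps13 libraries stood apart from each other: the median standard deviation between replicates over all tested genes, on the log2 CPM scale, was 0.501 in Δvps13, 0.191 in the wild type and 0.228 in Δvps21. Correlations of log2 CPM between Δvps13 libraries were 0.893 to 0.962, against 0.984 to 0.989 in the wild type. One of the genes described as a rab5-like GTPase, the family of Vps21, had 1365 to 1607 counts per wild-type library, 1147 to 1740 per Δvps13 library and 2 in each Δvps21 library (TRIREDRAFT_123015). No gene carries vps13 in its name or description, so the loss of that transcript was not followed. Levels are CPM, the counts scaled to a common library size by the TMM method, and levels of different genes are compared only as FPKM, which is also per gene length. In bulk RNA, fewer hyphae that use a gene and less RNA per hypha cannot be told apart.

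The lactate/pyruvate transporter gene TRIREDRAFT_121441 was higher in Δvps13 and lower in Δvps21 than in the wild type. It lies on the minus strand of scaffold NW_006711154.1 from 943843 to 945764, a span of 1922 bases of which 1725 count as exons. Its domain in the deposited table is Sugar_tr, a domain of major facilitator transporters that is not limited to carriers of sugars. The 3 wild-type libraries held 432, 469 and 447 counts, or 27.3, 32.7 and 33.7 CPM. The Δvps13 libraries held 5779, 2308 and 1339 counts, or 368, 204 and 158 CPM. The Δvps21 libraries held 38, 50 and 36 counts, or 2.70, 4.04 and 3.05 CPM. Every Δvps13 library was above every wild-type library, and every Δvps21 library was below.

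The distance between these groups was large against the spread inside them. The lowest Δvps13 library of TRIREDRAFT_121441 had 4.70 times the CPM of the highest wild-type library, and the lowest wild-type library had 6.76 times the CPM of the highest Δvps21 library. The group means of this gene were 31.2 ± 3.44 CPM in the wild type, 243 ± 111 CPM in Δvps13 and 3.26 ± 0.692 CPM in Δvps21 (SD, n = 3 each). Its fitted log2 difference from the wild type was 2.96 (SE 0.31) in Δvps13 and -3.26 (SE 0.33) in Δvps21, so the order of the levels was Δvps21, wild type, Δvps13. These differences share the wild-type libraries. With each deletion strain fitted alone with the wild type, the SE was 0.35 in Δvps13 and 0.21 in Δvps21. Between the deletion strains the fitted log2 difference, Δvps21 minus Δvps13, was -6.22 (SE 0.37), a 74.6-fold lower mean in Δvps21. Of 8906 tested genes, 2 had a more negative value in that last comparison. Counting error alone, as an exact 95% Poisson interval on the 36 counts of Δvps21 replicate 3, runs from 25.2 to 49.8 counts.

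The succinate-fumarate transporter-like gene TRIREDRAFT_121743 was higher in both deletion strains than in the wild type. It lies on the minus strand of scaffold NW_006711156.1 from 79784 to 81527, a span of 1744 bases of which 1510 count as exons, and carries the mitochondrial carrier domain Mito_carr. The wild-type libraries held 1328, 746 and 866 counts, or 83.9, 52.1 and 65.2 CPM. The Δvps13 libraries held 16059, 3861 and 1702 counts, or 1024, 340 and 201 CPM. The Δvps21 libraries held 5192, 2416 and 3301 counts, or 369, 195 and 280 CPM. All 6 libraries of the deletion strains were above every wild-type library, and the Δvps13 and Δvps21 libraries overlapped.

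The group means of TRIREDRAFT_121743 were 67.1 ± 16.0 CPM in the wild type, 522 ± 440 CPM in Δvps13 and 281 ± 87.0 CPM in Δvps21 (SD, n = 3 each). The lowest Δvps13 library had 2.39 times and the lowest Δvps21 library 2.32 times the CPM of the highest wild-type library. Its fitted log2 difference from the wild type was 2.96 (SE 0.53) in Δvps13 and 2.07 (SE 0.52) in Δvps21. These SEs come from a spread shared by all 3 groups. With each deletion strain fitted alone with the wild type, the SE was 0.58 in Δvps13 and 0.22 in Δvps21. The value in Δvps13 rested in part on replicate 1, and was 2.04 (SE 0.32) without it. Between the deletion strains, Δvps21 minus Δvps13, the log2 difference was -0.89 (SE 0.50), and without Δvps13 replicate 1 it was 0.05. The wild type was thus the lowest group, and the order of the 2 deletion strains lay within their spread.

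**Figure D1:**
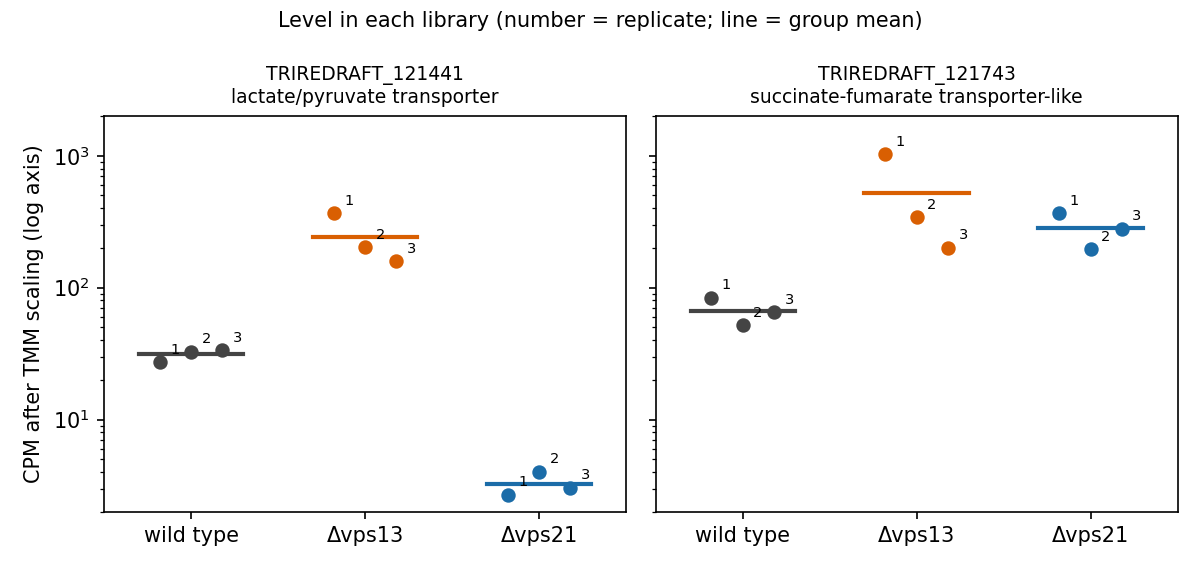
Level of each transporter gene in each of the 9 libraries, as CPM after TMM scaling on a log axis, with points numbered by replicate and a line at the mean of each group. TRIREDRAFT_121441 separates all 3 strains (27.3 to 33.7 CPM in the wild type, 158 to 368 in Δvps13, 2.70 to 4.04 in Δvps21), whereas for TRIREDRAFT_121743 only the wild type, at 52.1 to 83.9 CPM, stands clear of the other libraries.

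Both genes thus had groups without overlap in Δvps13 and in Δvps21 against the wild type. Such a separation was common over all tested genes: 30% of them had no overlap between Δvps13 and the wild type, with 14% higher and 16% lower, and 61.7% had none between Δvps21 and the wild type, with 30.2% higher and 31.6% lower. Between the deletion strains 31% had none, 14.8% being lower in Δvps21. Nothing is read from the count of 2, since the genes were chosen on these levels. By size of the fitted log2 difference, 28 of 8906 tested genes were above TRIREDRAFT_121441 and 29 above TRIREDRAFT_121743 in Δvps13, and 93 were below TRIREDRAFT_121441 in Δvps21. In Δvps21, 348 genes were above TRIREDRAFT_121743.

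Within Δvps13 both genes had their highest level in replicate 1 and their lowest in replicate 3. TRIREDRAFT_121743 spanned 5.10-fold between its highest and lowest Δvps13 library in CPM, and 8.47% of 8804 tested genes with counts in all Δvps13 libraries had a wider span. TRIREDRAFT_121441 spanned 2.33-fold there, close to the median span of 1.97-fold over those genes, with 37.6% wider. In the wild type, TRIREDRAFT_121441 spanned 1.23-fold in CPM and TRIREDRAFT_121743 1.61-fold. In Δvps21 these spans were 1.49-fold and 1.89-fold. The TMM factors of the Δvps13 libraries, 1.21, 0.841 and 0.699 for replicates 1, 2 and 3, had the same order as the levels of both genes. A larger factor lowers CPM, so this scaling narrowed the Δvps13 spans. The counts before scaling had the same order, at 5779, 2308 and 1339 for TRIREDRAFT_121441 and 16059, 3861 and 1702 for TRIREDRAFT_121743. The part of library composition in the order was not tested.

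Set side by side per length, TRIREDRAFT_121743 was the more abundant of the 2 in every library. In the wild type it had 43.9 ± 10.05 FPKM against 17.9 ± 2.20 FPKM for TRIREDRAFT_121441, and in Δvps13 347 ± 293 against 142 ± 64.8 (SD, n = 3 each). The FPKM ratio of TRIREDRAFT_121743 to TRIREDRAFT_121441 was 3.51, 1.82 and 2.21 in the wild-type libraries and 3.17, 1.91 and 1.45 in the Δvps13 libraries. In the Δvps21 libraries it was 156, 55.2 and 105. The ratio thus overlapped between the wild type and Δvps13, and every Δvps21 library was above all the others. By rank among all 10348 genes in FPKM, TRIREDRAFT_121743 moved from places 1668 to 2419 in the wild type to 121 to 977 in Δvps13 and 469 to 877 in Δvps21. TRIREDRAFT_121441 moved from places 3533 to 3992 in the wild type to 454 to 1283 in Δvps13 and 7421 to 7710 in Δvps21.

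The deposited descriptions name a second lactate/pyruvate transporter gene, TRIREDRAFT_44175, on another scaffold (NW_006711148.1, 1901836 to 1903734, minus strand). It also carries the Sugar_tr domain. Its level in FPKM was 187, 168 and 188 in the wild-type libraries. In the Δvps13 libraries it was 54.9, 55.8 and 140 FPKM, and in the Δvps21 libraries 119, 77.6 and 127 FPKM. The wild type was the highest group without overlap, yet neither difference was called at an adjusted p of 0.05 (edgeR quasi-likelihood, log2 -1.13, SE 0.36, adjusted p = 0.0665 in Δvps13 and log2 -0.76, SE 0.35, adjusted p = 0.122 in Δvps21). The Δvps13 call changed with the setting, with adjusted p values from 2.73e-04 to 0.185 over 17 alternatives, 5 of which called the gene lower, among them that without Δvps13 replicate 3 (log2 -1.72, adjusted p = 2.73e-04 by edgeR). In Δvps21 they ran from 0.00205 to 0.311 with 3 such calls, among them that without Δvps13 replicate 3 (adjusted p = 0.00852).

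The balance between these genes differed between the strains. In the wild type the FPKM of TRIREDRAFT_44175 was 12.1, 8.92 and 9.58 times that of TRIREDRAFT_121441, and in Δvps21 it was 76.0, 33.3 and 71.2 times. In Δvps13 replicates 1 and 2 the order was turned, with TRIREDRAFT_121441 at 3.91 and 2.14 times the FPKM of TRIREDRAFT_44175, whereas in replicate 3 it was at 0.650 times. The FPKM of both genes summed to 199 ± 10.9 for the wild type, 225 ± 47.4 for Δvps13 and 110 ± 26.1 for Δvps21 (SD, n = 3 each). The summed level overlapped between the wild type and Δvps13, where the libraries held 269, 175 and 231 FPKM, and was lower in each Δvps21 library, at 121, 80.0 and 129 FPKM.

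**Figure D2:**
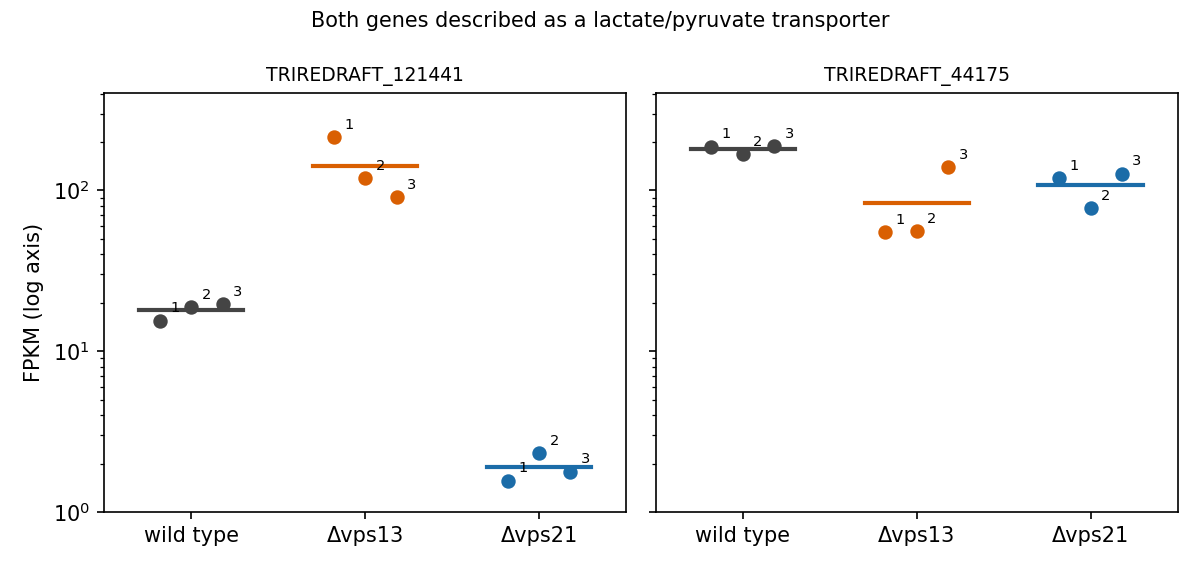
FPKM in each library, on a log axis, of the 2 genes described as a lactate/pyruvate transporter, with points numbered by replicate and a line at the mean of each group. TRIREDRAFT_121441 runs from 1.56 to 215 FPKM over the 9 libraries, whereas TRIREDRAFT_44175 stays between 54.9 and 188 FPKM.

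The remaining descriptions of organic acid transport were few. The mitochondrial dicarboxylate carrier gene TRIREDRAFT_108216, whose yeast counterpart exchanges malate or succinate for phosphate, rose in Δvps21 from 23.8 ± 4.84 to 60.6 ± 16.8 CPM (n = 3 each, log2 1.35, SE 0.27, adjusted p = 0.00342 by edgeR), a call kept in 17 of 17 alternatives. In Δvps13 it was called too (log2 0.98, SE 0.27, adjusted p = 0.0398), but 8 of 17 alternatives did not call it, among them those without wild-type replicate 1, 2 or 3 (adjusted p = 0.144, 0.151 and 0.0691), without Δvps13 replicate 2 (0.105) and without Δvps21 replicate 1 or 3 (0.0629 and 0.0512), with a range of 0.00986 to 0.151 over the 17. A carrier described for oxaloacetate, sulfate and thiosulfate, TRIREDRAFT_119845, was not called in Δvps13 (log2 -0.48, SE 0.24, adjusted p = 0.211 by edgeR) or in Δvps21 (log2 0.16, SE 0.24, adjusted p = 0.643). Together with TRIREDRAFT_44175 these are 3 further genes, of which 1 was called higher and 0 lower in each deletion strain. Of all tested genes 10.4% were called in Δvps13, 5.65% higher and 4.75% lower, and 32.5% in Δvps21, 16.7% higher and 15.8% lower. These shares depend on the scaling: 503 genes were called higher and 423 lower in Δvps13 after TMM, but 173 and 1089 when only library totals were used, and in Δvps21 the counts went from 1489 higher and 1408 lower to 872 and 1678. With library totals the 3 further genes had 0 higher and 1 lower in Δvps13, and 1 higher and 1 lower in Δvps21. The gene of a carrier described for 2-oxoglutarate and 2-oxoadipate, TRIREDRAFT_82280, had 58.7, 48.1 and 45.5 CPM in the wild type, 56.7, 51.4 and 63.0 CPM in Δvps13 and 80.6, 70.1 and 83.7 CPM in Δvps21. It rose in Δvps21 (log2 0.62, SE 0.18, adjusted p = 0.0235 by edgeR), although not when library totals alone were used for scaling (adjusted p = 0.243) nor without wild-type replicate 2 or 3 or Δvps21 replicate 1 or 3 (0.0946, 0.0873, 0.0709 and 0.0917), with a range of 0.00221 to 0.243 over 17 alternatives.

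Among genes that share a domain with the transporters, both stood at an end of the range in Δvps13. The largest fitted log2 difference of the 60 tested Sugar_tr genes in Δvps13 was that of TRIREDRAFT_121441 at 2.96, and the next was 2.71 (TRIREDRAFT_65493). In Δvps21 its log2 difference of -3.26 was next to the lowest, after -3.32 for the sugar transporter gene hxt1, which fell from 477, 859 and 979 CPM in the wild type to 76.1, 69.6 and 85.4 CPM (SE 0.53, adjusted p = 0.00112 by edgeR). In Δvps13 hxt1 fell too, to 51.6, 125 and 281 CPM (log2 -2.34, SE 0.51, adjusted p = 0.0180 by edgeR), a call lost in 4 of 17 alternatives, among them those without wild-type replicate 2 or 3 or Δvps13 replicate 2 (adjusted p = 0.0746, 0.0691 and 0.0679, with a range of 9.37e-05 to 0.0746). The same family also held the gene described as a galactose permease, TRIREDRAFT_106556, which had 1.39, 1.19 and 2.48 CPM in the wild type. It rose to 6.88, 15.5 and 5.90 CPM in Δvps13 (log2 2.49, SE 0.41, adjusted p = 0.00632 by edgeR) and to 206, 234 and 292 CPM in Δvps21 (log2 7.18, SE 0.46, adjusted p = 6.68e-06), and both calls were kept in 17 of 17 alternatives. In Δvps21 minus Δvps13 the value of TRIREDRAFT_121441, -6.22, was the lowest of the 60, and the next was -2.41. TRIREDRAFT_121743 had the largest log2 difference of 34 tested Mito_carr genes in Δvps13, ahead of 2.44 for TRIREDRAFT_103853, and the next to largest in Δvps21, after 2.84 for TRIREDRAFT_56467. In FPKM level it stood at place 11 of 35 Mito_carr genes in the wild type, at place 4 in Δvps13 and at place 5 in Δvps21. TRIREDRAFT_121441 stood at place 22 of 64 Sugar_tr genes in the wild type, at place 7 in Δvps13 and at place 49 in Δvps21.

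**Figure D3:**
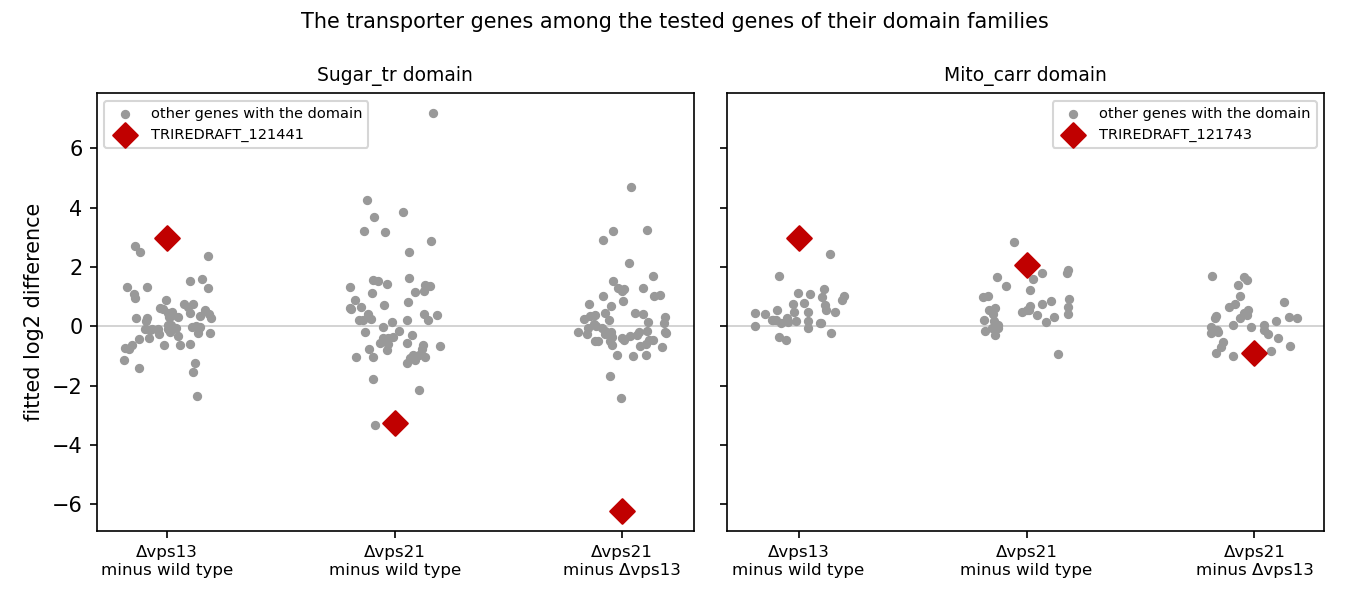
Fitted log2 difference of every tested gene with the Sugar_tr domain (60 genes) and the Mito_carr domain (34 genes) in the 3 comparisons, with the transporter gene of each family as a red diamond and the others as grey points spread sideways for legibility. The diamond of TRIREDRAFT_121441 goes from 2.96 in Δvps13 to -3.26 in Δvps21, and that of TRIREDRAFT_121743 lies at 2.96 and 2.07.

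The rest of both families was counted by its calls. Of the other 33 tested Mito_carr genes, 6 rose in Δvps13, with a median log2 difference of 0.44 against 0.04 over all tested genes. In Δvps21, 14 rose and 1 fell, with a median of 0.56 against -0.02. That is 18.2% called in Δvps13, against 10.4% of all tested genes, and 45.5% in Δvps21, against 32.5%. With library totals only, 3 rose in Δvps13, and in Δvps21 10 rose and 1 fell. After TMM, the count in Δvps13 was 3, 0 and 0 without wild-type replicates 1, 2 and 3, 3 without Δvps13 replicate 2 and 13 without Δvps13 replicate 3. The count in Δvps21 was 8 higher without wild-type replicate 2 or 3 or Δvps21 replicate 3, and 9 higher without Δvps21 replicate 1. Of the other 59 tested Sugar_tr genes, 6 rose and 2 fell in Δvps13, and 19 rose and 8 fell in Δvps21. That is 13.6% called in Δvps13, near the 10.4% of all tested genes, and 45.8% in Δvps21, against 32.5%. The counts became 4 up and 6 down, and 15 up and 11 down, with library totals only. The shares over all tested genes also change with that scaling, as given above. After TMM the Δvps13 counts of Sugar_tr genes were 1 up and 1 down, 1 up and 0 down, and 2 up and 0 down without wild-type replicates 1, 2 and 3, 4 up and 0 down without Δvps13 replicate 2, and 13 up and 13 down without Δvps13 replicate 3. With 1 library left out, all genes called also ran from 165 to 3233 in Δvps13 and from 1705 to 4236 in Δvps21. Nothing about the families is therefore read from these changes. The Sugar_tr gene with the highest mean FPKM, TRIREDRAFT_3405, was not called in either strain (adjusted p = 0.423 and 0.802 by edgeR).

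Across the 9 libraries the genes whose pattern lay nearest to TRIREDRAFT_121743 were close to it. Nearness was the root mean square difference of log2(CPM + 1) after each gene was centred on its own mean, over 8905 other tested genes, with a median of 1.35 for this gene. The nearest was TRIREDRAFT_103853 at 0.30, a gene described only as a predicted protein that carries the same Mito_carr domain. Its level was 22.0, 17.0 and 18.9 CPM in the wild type, 197, 58.6 and 58.4 CPM in Δvps13 and 102, 50.6 and 62.6 CPM in Δvps21. The next was acs1 at 0.32, for acetyl-CoA synthase by its description, the enzyme that turns acetate into acetyl-CoA. It had 533, 572 and 552 CPM in the wild type, 6061, 1817 and 1230 CPM in Δvps13 and 1981, 1159 and 1509 CPM in Δvps21. Then came the homeobox gene TRIREDRAFT_121074 at 0.35, axe1 of carbohydrate esterase family 5 at 0.42 and TRIREDRAFT_122240, a predicted protein, at 0.42. In all 5, as in TRIREDRAFT_121743, Δvps13 replicate 1 was the highest of the 9 libraries. When that library was left out, 1 of these 5, TRIREDRAFT_103853, was again among the 5 nearest.

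No gene lay as close to TRIREDRAFT_121441, but distances to the 2 transporter genes are not on a like footing. They grow with how widely a gene varies. The centred values ran from -3.09 to 3.55 for TRIREDRAFT_121441 and from -1.89 to 2.39 for TRIREDRAFT_121743. The nearest, TRIREDRAFT_76682, with an ABC2_membrane domain found in ABC transporters, lay at 1.04, and the median over all genes was 2.41. Its level was 360, 265 and 329 CPM in the wild type, 672, 2669 and 1112 CPM in Δvps13 and 78.3, 58.5 and 98.7 CPM in Δvps21. It shared the order of the groups but was highest in Δvps13 replicate 2, not replicate 1. The other 4 nearest genes lay at 1.38 to 1.45 and have no described function (TRIREDRAFT_76713, TRIREDRAFT_80659, TRIREDRAFT_109945 and a further gene model of the authors). Without Δvps13 replicate 1 only TRIREDRAFT_76682 of these 5 remained among the nearest. The distance between the 2 transporter genes themselves was 2.43, which put TRIREDRAFT_121743 at place 4915 of 8905 in nearness to TRIREDRAFT_121441. In nearness to TRIREDRAFT_121743, where the median was 1.35, TRIREDRAFT_121441 was at place 8859 of 8905. The distance is not scaled for how widely a gene varies, so a gene of wide range lies far from most others. That place is therefore not read as an opposite pattern.

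**Figure D4:**
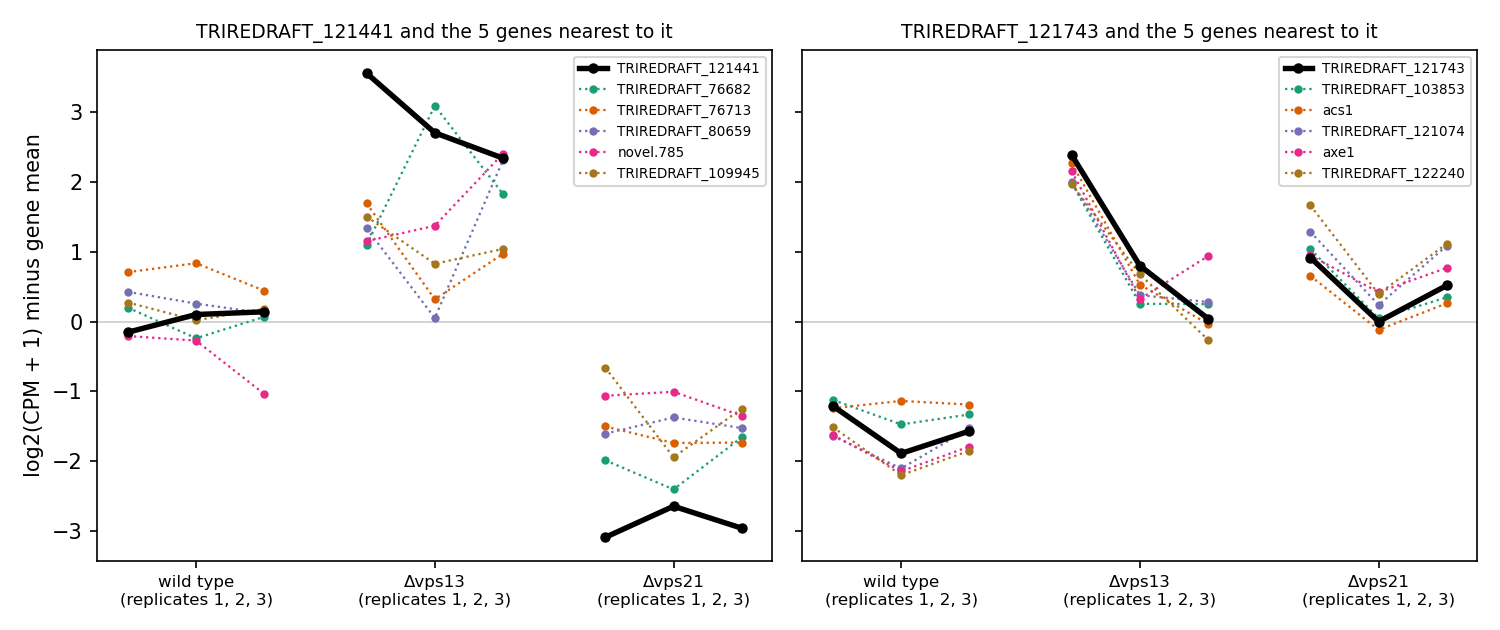
Pattern over the 9 libraries, as log2(CPM + 1) minus the mean of each gene, of each transporter gene (thick black line) and the 5 genes nearest to it (dotted lines), with replicates 1, 2 and 3 from left to right in each strain. The lines run close together for TRIREDRAFT_121743, at distances of 0.30 to 0.42, and wide apart for TRIREDRAFT_121441, at 1.04 to 1.45. These distances grow with how widely a gene varies, and TRIREDRAFT_121441 varies more.

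The gene models beside the transporters did not share their levels as a block. The start of TRIREDRAFT_121441 is 345 bases from TRIREDRAFT_106537, a predicted protein gene read in the opposite direction, which had 2.91, 1.40 and 1.88 CPM in the wild type, 2.49, 1.76 and 1.18 CPM in Δvps13 and 0.427, 0.242 and 0.509 CPM in Δvps21. Like its neighbour it was lowest in Δvps21, but in Δvps13 it overlapped the wild type. A class II hydrophobin gene, TRIREDRAFT_106538, lies 5877 bases from TRIREDRAFT_121441. It went the other way in Δvps21, at 1031, 1216 and 1027 CPM against 7.01, 6.42 and 7.83 CPM in the wild type, and had 77.5, 230 and 4.37 CPM in Δvps13. On the other side TRIREDRAFT_121439, a predicted protein gene 1048 bases away, had 2.56 to 3.91 CPM in the wild type, 5.91 to 7.90 CPM in Δvps13 and 6.40 to 7.91 CPM in Δvps21.

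TRIREDRAFT_121743 overlaps its neighbour TRIREDRAFT_62000 by 25 bases, end to end on opposite strands. No strand-marking step is named in the labels, so reads within those bases could not be assigned by strand. TRIREDRAFT_62000, which carries a cofilin domain, had 24.5, 27.3 and 25.8 CPM in the wild type, 35.6, 23.2 and 26.8 CPM in Δvps13 and 23.5, 22.7 and 21.1 CPM in Δvps21. Each of its Δvps21 libraries was below each wild-type library, by little (log2 -0.21, SE 0.20, adjusted p = 0.467 by edgeR), while TRIREDRAFT_121743 ran from 52.1 to 1024 CPM. The neighbour on its other side, a gene model of the authors 1326 bases away, had 0.349 to 4.97 CPM.

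The enzymes around these acids in metabolism were counted from lists of deposited descriptions. Of 27 tested genes of the citric acid and glyoxylate cycles, which also take in homocitrate, methylcitrate and isopropylmalate enzymes, 8 rose in Δvps13, with a median log2 difference of 0.39, and in Δvps21 9 rose and 2 fell, with a median of 0.59. The medians over all tested genes were 0.04 and -0.02. The share called was 29.6% in Δvps13, against 10.4% of all tested genes, and 40.7% in Δvps21, against 32.5%. With library totals only, 1 rose in Δvps13, and in Δvps21 3 rose and 2 fell. After TMM, the count in Δvps13 was 1 without any 1 of the wild-type replicates 1, 2 or 3, and 3 without Δvps13 replicate 2. In Δvps21 it was 5 up and 1 down, 4 up and 2 down, and 5 up and 2 down without wild-type replicates 1, 2 and 3, 4 up and 1 down without Δvps21 replicate 1 or 3, 15 up and 4 down without Δvps13 replicate 1, and 15 up and 5 down without Δvps13 replicate 3. The count of all genes called moved too when 1 library was left out, from 165 to 3233 in Δvps13 and from 1705 to 4236 in Δvps21. The isocitrate lyase gene acu3, for the first step of the glyoxylate cycle proper, had 892, 857 and 849 CPM in the wild type, 3423, 2230 and 1563 CPM in Δvps13 and 1175, 617 and 909 CPM in Δvps21. It rose in Δvps13 (log2 1.47, SE 0.34, adjusted p = 0.0226 by edgeR), a call kept in 12 of 17 alternatives. It was lost without wild-type replicates 1, 2 or 3 (adjusted p = 0.0860, 0.105 and 0.0913), with Δvps13 and the wild type fitted alone (0.0682) and with library totals only (0.0637). The gene's adjusted p had a range of 1.63e-04 to 0.105 over the 17. In Δvps21 it was not called (log2 0.06, SE 0.34, adjusted p = 0.912). The aconitate hydratase gene TRIREDRAFT_77336 had 536, 407 and 392 CPM in the wild type, 1604, 1629 and 577 CPM in Δvps13 and 1777, 1020 and 1625 CPM in Δvps21. It rose in both strains (log2 1.51, SE 0.39, adjusted p = 0.0355 in Δvps13 and log2 1.73, SE 0.40, adjusted p = 0.00759 in Δvps21, by edgeR), a call kept in 17 of 17 alternatives in Δvps21. In Δvps13 it was lost in 8 of 17, among them those without wild-type replicates 1, 2 or 3 (adjusted p = 0.0892, 0.145 and 0.130), without Δvps13 replicate 2 (0.104) and without Δvps21 replicate 1 or 3 (0.0524 and 0.0615), with a range of 5.21e-04 to 0.145. A gene described as malate dehydrogenase whose domain is that of malic enzyme, TRIREDRAFT_119896, rose in Δvps13 (log2 1.68, SE 0.25, adjusted p = 0.00451 by edgeR, kept in 17 of 17 alternatives). In Δvps21 it was not called (log2 0.59, SE 0.25, adjusted p = 0.0903), although 4 of 17 alternatives called it higher, among them those without Δvps13 replicate 1 or 3 (adjusted p = 0.0318 and 0.0363, with a range of 0.00697 to 0.390). The isocitrate/isopropylmalate dehydrogenase gene TRIREDRAFT_56370 went the other way. It fell in Δvps21 (log2 -2.07, SE 0.48, adjusted p = 0.00765 by edgeR), a call kept in 16 of 16 alternatives. Its counts were low, at 50, 49 and 26 in the wild type and 11, 12 and 3 in Δvps21. In Δvps13 it was not called (log2 -1.08, SE 0.45, adjusted p = 0.143).

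Of 20 tested genes for enzymes of pyruvate, lactate, ethanol and acetate, 4 rose and 2 fell in Δvps13, with a median log2 difference of 0.13, and 2 rose and 5 fell in Δvps21, with a median of -0.43. That is 30% called in Δvps13, against 10.4% of all tested genes, and 35% in Δvps21, near the 32.5% of all tested genes. With library totals only, 4 rose and 5 fell in Δvps13, and 1 rose and 8 fell in Δvps21. Aldehyde dehydrogenases of other substrates are among them. Without wild-type replicates 1, 2 and 3 the Δvps13 counts were 0 up and 1 down, 0 up and 1 down, and 0 up and 2 down, and without Δvps13 replicate 3 they were 5 up and 7 down. In Δvps21 they were 1 up and 3 down without wild-type replicate 1 or 2 or Δvps21 replicate 1 or 3, 5 up and 7 down without Δvps13 replicate 1, and 5 up and 6 down without Δvps13 replicate 3. As for the list before, the count of all genes called moved with the library left out. The gene acs1 rose in both strains (log2 2.46, SE 0.53, adjusted p = 0.0170 in Δvps13 and log2 1.49, SE 0.51, adjusted p = 0.0446 in Δvps21, by edgeR). Its call was lost in Δvps13 without wild-type replicates 1, 2 or 3 (adjusted p = 0.0791, 0.0834 and 0.0723) and with Δvps13 and the wild type fitted alone (0.0615, with a range of 2.03e-05 to 0.0834 over 17 alternatives). In Δvps21 it was lost in 8 of 17, among them those without any 1 of the wild-type or Δvps21 replicates (adjusted p from 0.0605 to 0.136, with a range of 7.46e-06 to 0.136 over the 17). The aldehyde dehydrogenase gene TRIREDRAFT_78683 had 520, 427 and 395 CPM in the wild type, 6689, 1628 and 1052 CPM in Δvps13 and 931, 472 and 677 CPM in Δvps21. It rose in Δvps13 (log2 2.80, SE 0.61, adjusted p = 0.0178 by edgeR) and was not called in Δvps21 (log2 0.63, SE 0.57, adjusted p = 0.426). The Δvps13 call was lost without wild-type replicates 1, 2 or 3 (adjusted p = 0.0707, 0.0908 and 0.0782). It was also lost with Δvps13 and the wild type fitted alone (0.0616, with a range of 1.67e-05 to 0.0908 over 17 alternatives). Another aldehyde dehydrogenase gene, TRIREDRAFT_123274, fell in both strains, with a log2 difference of -1.9958 in Δvps13 (SE 0.37, adjusted p = 0.0101 by edgeR) and -2.92 in Δvps21 (SE 0.39, adjusted p = 4.02e-04), and kept both calls in 17 of 17 alternatives.

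The phosphoenolpyruvate carboxykinase gene TRIREDRAFT_124115, whose enzyme opens the path from oxaloacetate back to sugars, was picked after its values were seen. It had 1491, 1414 and 1389 CPM in the wild type, 9297, 9040 and 2078 CPM in Δvps13 and 3757, 2418 and 3890 CPM in Δvps21. It rose in Δvps13 (log2 2.25, SE 0.50, adjusted p = 0.0192 by edgeR), although not without wild-type replicates 1, 2 or 3 (adjusted p = 0.0820, 0.0967 and 0.0806) or Δvps13 replicate 2 (0.0576), nor with Δvps13 and the wild type fitted alone (0.0717), with a range of 3.07e-05 to 0.0967 over 17 alternatives. In Δvps21 its adjusted p was 0.0732, and 4 of 17 alternatives called it higher.

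A lactate dehydrogenase-like gene, TRIREDRAFT_122010, was lower in Δvps21 than in Δvps13 (log2 -2.02, SE 0.36, adjusted p = 0.00452 by edgeR, kept in 17 of 17 alternatives). In that comparison 15.2% of tested genes were called, 7.68% higher and 7.55% lower in Δvps21 (684 and 672 genes, against 691 and 395 with library totals only). TRIREDRAFT_122010 had 372, 364 and 387 CPM in the wild type, 493, 738 and 1463 CPM in Δvps13 and 233, 242 and 191 CPM in Δvps21. Against the wild type it rose in Δvps13 (log2 1.26, SE 0.35, adjusted p = 0.0430 by edgeR), but 11 of 17 alternatives lost that call, among them those without any 1 of the wild-type or Δvps21 replicates or without Δvps13 replicate 2 (adjusted p from 0.0639 to 0.152, with a range of 0.00398 to 0.152 over the 17). Its highest Δvps13 library was replicate 3, whereas that of TRIREDRAFT_121441 was replicate 1.

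The other lists were short, so that 1 gene moves their share far from the 10.4% of all tested genes called in Δvps13 and the 32.5% called in Δvps21. Those shares of all genes also move when 1 library is left out. Of 5 tested genes of mitochondrial respiration, 0 were called in Δvps13 by edgeR (1 higher at an unadjusted p below 0.05, and 1 higher by DESeq2), and in Δvps21 1 rose and 1 fell. The Δvps13 count was 1 without Δvps13 replicate 3, and the Δvps21 count was 1 up and 0 down without any 1 of the wild-type or Δvps21 replicates. The 4 genes with a C4dic_mal_tran domain, named for transport of dicarboxylic acids such as malate, are all described as predicted proteins. Of these 1 fell in Δvps13, TRIREDRAFT_39637 (log2 -1.43, SE 0.36, adjusted p = 0.0303 by edgeR), a call lost in 8 of 16 alternatives, among them those without any 1 of the wild-type or Δvps21 replicates or without Δvps13 replicate 2 (adjusted p from 0.0524 to 0.128, with a range of 0.00166 to 0.128 over the 16), and the count was 2 without Δvps13 replicate 3. In Δvps21 0 were called by edgeR (0 at an unadjusted p below 0.05, and 0 by DESeq2), and 1 without Δvps13 replicate 3. Of 5 tested genes described as sugar or major facilitator transporters, 1 rose and 1 fell in Δvps13, and 2 rose and 1 fell in Δvps21, which became 0 up and 1 down, and 1 up and 1 down, with library totals only. After TMM, the Δvps13 count of both directions was 0 without wild-type replicate 2 or 3 or Δvps13 replicate 2, 1 without wild-type replicate 1, Δvps13 replicate 1 or any 1 of the Δvps21 replicates, and 4 without Δvps13 replicate 3. Of 5 tested genes caught by a pattern for mitochondrial carriers, of which 1 is an enoyl reductase and no carrier, 1 rose in Δvps13 and 2 in Δvps21. These are TRIREDRAFT_108216 and TRIREDRAFT_82280, whose calls without single libraries are given above.

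Hydrophobins, small surface proteins of filamentous fungi, were listed as possible markers of growth forms other than submerged hyphae. Whether they mark such forms here was not tested. Their 4 genes summed to 3571 to 4400 CPM in the wild type, 1961 to 10820 CPM in Δvps13 and 8969 to 13345 CPM in Δvps21, with hfb1 at 0 counts in all wild-type libraries. The gene hfb2 alone had 3379, 2631 and 2653 CPM in the wild type. Of the 3 tested, 1 was called higher in each deletion strain, TRIREDRAFT_106538 above, whose call in Δvps13 was lost without any 1 of the wild-type replicates or without Δvps13 replicate 2 (adjusted p from 0.0886 to 0.115 by edgeR, with a range of 7.23e-06 to 0.134 over 17 alternatives). In Δvps13 replicate 3 this gene had 4.37 CPM, below the 6.42 to 7.83 CPM of the wild type. In Δvps21 all 3 were called higher by DESeq2 and without any 1 of the Δvps13 replicates. Their part in the levels of the transporter genes was not tested.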

How the data were processed

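The authors deposited whole-number counts per gene for 9 libraries, and FPKM values for the same libraries. The tools named in the submitters' processing notes are HISAT2 2.0.5, an aligner, and featureCounts 1.5.0-p3, which counts reads per gene. The genome build is not given in the sources used here, and coordinates are those of the deposited table, of whose genes 9116 were found in a RefSeq table of the QM6a v2.0 assembly. The deposited FPKM values can be derived from the counts with the length of each gene and 1 divisor for each library. That divisor is not the library's total count, so the authors scaled between libraries, and FPKM is no independent measurement.

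Counts were filtered with filterByExpr (minimum count 10), scaled by TMM and fitted by edgeR 4.0.16 quasi-likelihood (R 4.3.3) with 1 mean per strain over all 9 libraries. Calls were made at a Benjamini-Hochberg adjusted p of 0.05 over 8906 genes. Each SE of an edgeR fit is the absolute log2 difference divided by the square root of its quasi-likelihood F statistic. The alternatives used DESeq2 1.42.0, limma 3.58.1 on log2(FPKM + 1), other scalings, filters and sets of libraries. Nothing in the labels says whether replicates came from separate cultures, and the spread behind every p may therefore be technical.

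The genes and lists were chosen with earlier results of these data known. Lists are patterns matched to the deposited descriptions, without the transporter genes themselves. Named are all genes of organic acid transport. Of the other lists, the rule takes the called genes with the largest difference per comparison whose libraries do not overlap, and the most abundant gene, and only part of these is printed. The 5 nearest genes and 3 neighbours on each side complete the rule. The domain lists (Sugar_tr, Mito_carr, C4dic_mal_tran) were chosen after the tables were seen.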

Additional observations from a re-analysis of the deposited data

How the results depend on the processing

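The fitted log2 difference of TRIREDRAFT_121441 kept its sign in all 3 comparisons under all 17 alternatives. On the log2(FPKM + 1) scale, where the added 1 shrinks low levels, it was -2.71 in Δvps21 against the wild type and -5.54 in Δvps21 against Δvps13. With 1 library left out its log2 differences ran from 2.56 to 3.21 in Δvps13, from -3.44 to -3.12 in Δvps21 and from -6.45 to -5.80 between the deletion strains. Those of TRIREDRAFT_121743 ran from 2.04 to 3.36, from 1.84 to 2.28 and from -1.27 to 0.0491. The value of 0.0491, without Δvps13 replicate 1, reverses the sign of the comparison between the deletion strains, and 2.04 in Δvps13 is the value without the same library. Scaling by library totals only shifted the median log2 difference of all genes by -0.298 in Δvps13 and -0.181 in Δvps21, and gave TRIREDRAFT_121441 2.79 and -3.44 and TRIREDRAFT_121743 2.87 and 1.89.

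Counts of called genes moved more. In Δvps13 they were 926, and 1620 by DESeq2 or 298 in the 2 groups alone, with 165 to 3233 when 1 library was left out: 282, 165 and 256 without wild-type replicates 1, 2 and 3, 491 and 3233 without Δvps13 replicates 2 and 3, and 583 without Δvps21 replicate 3. In Δvps21 they were 2897, and 4889 in the 2 groups alone, with 1705 to 4236 when 1 library was left out, the lowest being 1810 without wild-type replicate 2 and 1901 and 1705 without Δvps21 replicates 1 and 3. Between the deletion strains they were 1356, and 612 in the 2 groups alone, with 514 to 2216 when 1 library was left out, of which 744, 770 and 514 came without Δvps21 replicates 1, 2 and 3 and 2216 without Δvps13 replicate 3. The cause was not tested. With Δvps13 and the wild type fitted alone, further Δvps13 calls named above were lost. These were TRIREDRAFT_108216 (adjusted p = 0.0777 by edgeR), TRIREDRAFT_77336 (0.0869), TRIREDRAFT_122010 (0.118), hxt1 (0.0682), TRIREDRAFT_39637 (0.0978) and TRIREDRAFT_106538 (0.0792). The Δvps13 calls of TRIREDRAFT_106556, TRIREDRAFT_119896 and TRIREDRAFT_123274 were kept in that setting.

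Whether the replicate numbers pair the libraries is not settled by the data. Deviations of same-numbered libraries correlated between -0.0981 and 0.470 over the 3 pairs of groups, and those of differently numbered libraries between -0.427 and 0.419. The value of 0.470 was that of replicates 1 of Δvps13 and Δvps21. With a replicate block the log2 differences were 2.91, -3.27 and -6.18 for TRIREDRAFT_121441 and 2.73, 2.05 and -0.68 for TRIREDRAFT_121743. The SE of TRIREDRAFT_121743 went from 0.53 to 0.38 in Δvps13 and from 0.52 to 0.37 in Δvps21. That of TRIREDRAFT_121441 went from 0.31 to 0.33 and from 0.33 to 0.35.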
